A study of Mus musculus with 24 samples.

Results

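Livers of conventional mice fed fish oil were set against livers of conventional mice fed lard. The comparison took the 6 samples titled as fish oil conventional mice 1 to 6 minus the 6 titled as lard conventional mice 1 to 6, 12 of the 24 arrays in the series. Every gene with a probe set of 1 symbol was used, which gave 19938 genes at 1 probe set each. The 24 arrays held 4 groups of 6 mice: fish oil conventional, lard conventional, fish oil germ-free and lard germ-free. All groups were wild-type C57Bl/6 males on isocaloric diets with 45% of energy as fat, menhaden oil or lard, and germ-free mice are animals raised without microbes. Feeding lasted 11 weeks and an age of 11 weeks is given too, so the age at sampling is not settled by the sources used here. Mice were fasted for 4 hours and 250 ng of liver RNA entered each labelling reaction. The labels number the mice but name no litter, cage, hybridisation batch or hour of sampling. The p-values below rest on the spread between samples and cannot account for these factors. For single genes that spread is pooled over all 4 groups.

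As background, the liver makes fatty acids from carbohydrate under the transcription factors SREBP-1c, ChREBP and LXR, and long-chain n-3 fatty acids of the kind found in fish oil are known to lower this programme in rodents and to activate PPAR-alpha, which drives fatty acid oxidation genes. The circadian clock of the liver is a feedback loop in which BMAL1 (the product of Arntl) and CLOCK switch on the Per, Cry and Nr1d genes, whose products act back on the loop. Dbp, a direct output of that loop, peaks when Arntl is low, so the difference between their signals varies with the phase of the clock. In a liver taken at a single moment, a given difference can match different phases and does not settle the phase.

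All values are log2 signals, and a difference is fish oil minus lard on that scale with its standard error (SE). For single genes the SE comes from limma with the spread pooled over all 4 groups. It is not the SE of the 12 conventional mice alone. Hepatocyte markers (12 measured, among them albumin and transthyretin) had a mean signal of 13.61 to 13.71 in the fish oil mice and 13.58 to 13.69 in the lard mice, near the top of the scale in all 12 livers. The fish oil mice varied more among themselves. Over the 9969 genes above the median level, the median SD was 0.204 in the fish oil mice and 0.122 in the lard mice, and each array correlated with its group at a mean of 0.9834 to 0.9905 on fish oil and 0.9929 to 0.9956 on lard. Livers are mixtures of cells, so fewer cells of a type and less RNA per cell cannot be told apart in these data.

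At an adjusted p under 0.05 in limma, which is what called means here, 161 of 19938 genes (0.808%) differed, of which 41 (0.206%) were higher and 120 (0.602%) lower on fish oil. The balance of directions depended on the scaling: 57 were higher and 79 lower after a second quantile normalization, 41 higher and 223 lower with equal array medians, and 39 higher and 28 lower with each array's 75th percentile as a covariate. Of the 161 called genes, 13 were at least 2-fold lower and 2 were at least 2-fold higher, and the higher pair (Serpina4-ps1, with a difference of 1.54, and Adh6-ps1, with 1.07) are pseudogenes in families whose members can share probe sequence. The signals of all 6 fish oil mice lay outside the range of all 6 lard mice in 199 genes (0.998%), 104 higher (0.522%) and 95 lower (0.476%). Of the called genes, 58 separated the groups in this way, 18 higher and 40 lower. The median SE of the called differences was 0.10, and the median difference over all genes was 0.013. Of all genes, 10790 had a positive difference and 9148 a negative one.

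The calls rest on the spread pooled over all 4 groups. Fitted on the 12 conventional mice alone, limma called 0 genes. All 161 had an unadjusted p under 0.05 in that fit, but they were picked for small p from these same mice. That count is therefore no separate support for the calls. Leaving out 1 mouse gave between 0 calls (without fish oil mouse 2, or without lard mouse 3, 5 or 6) and 743 (without fish oil mouse 4).

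**Figure D1:**
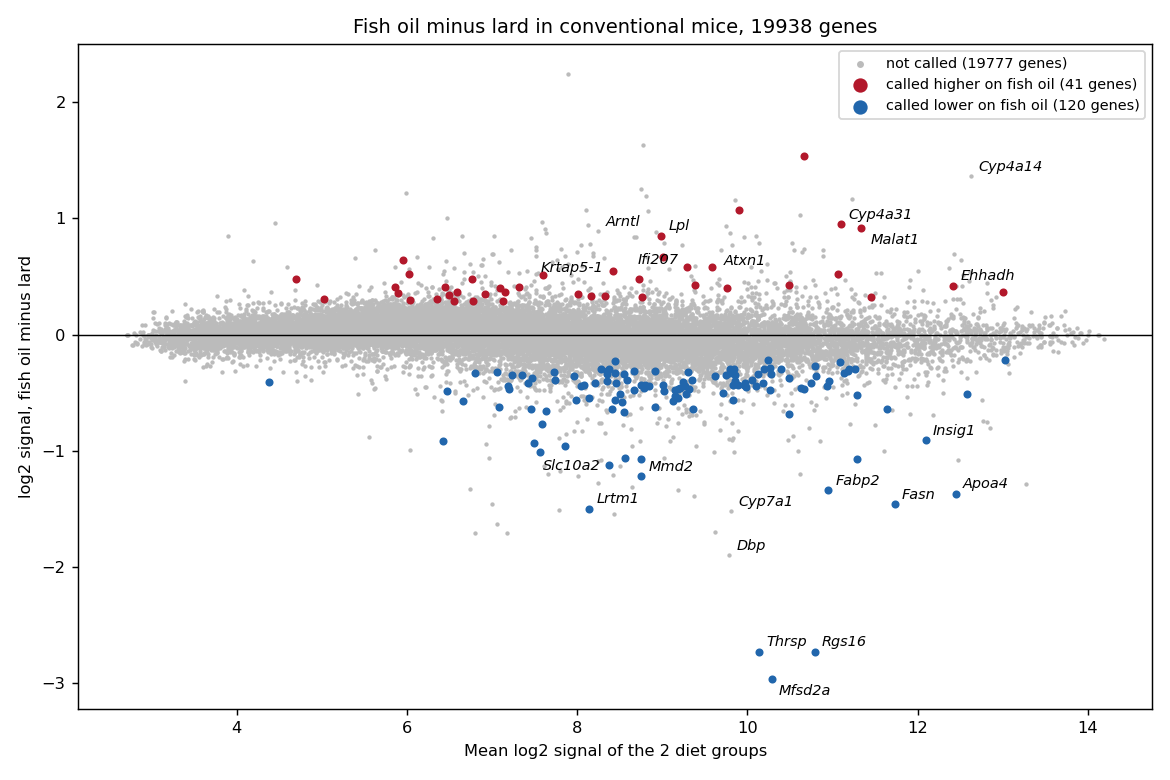
Difference of each of the 19938 genes (vertical axis, log2 signal, fish oil minus lard) against its mean log2 signal in both diet groups (horizontal axis). Red points are the 41 genes called higher, blue points the 120 called lower and grey points the rest; Mfsd2a, Thrsp and Rgs16 lie lowest, between -2.96 and -2.73.

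Mfsd2a, Thrsp and Rgs16 had the lowest differences of the called genes. Mfsd2a, which encodes a transporter of lysophospholipids that carry docosahexaenoic acid, had signals of 8.03, 7.65, 11.20, 11.67, 7.36 and 6.92 in fish oil mice 1 to 6, against 11.03 to 12.70 in the lard mice (median 11.71). Its mean was 8.80 (SD 2.08) on fish oil and 11.77 (SD 0.54) on lard (n = 6 each). The difference was -2.96 ± 0.58, with the SE pooled over all 4 groups (limma adjusted p = 0.0322). Fish oil mice 3 and 4 lay inside the lard range and the other 4 lay far below it.

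Thrsp, a regulator of fatty acid synthesis in liver and fat, had signals of 8.22, 7.25, 10.78, 10.80, 6.99 and 8.61 in fish oil mice 1 to 6, against 9.97 to 12.53 on lard. Rgs16, which turns off G protein signalling, had 8.59, 7.98, 12.08, 12.30, 8.03 and 7.60 on fish oil, against 11.83 to 12.41 on lard. Each fell by 2.73 (SE 0.56 for Thrsp and 0.62 for Rgs16; limma adjusted p = 0.0344 and 0.0391). Again mice 3 and 4 were at lard levels and mice 1, 2, 5 and 6 were not.

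The same 2 mice stood at or close to the lard range in the next lowest genes. Fabp2, an intracellular fatty acid carrier best known from intestine, had 11.49 and 11.46 in fish oil mice 3 and 4 and 9.21 to 10.43 in the other 4, against 11.29 or more on lard (median 11.61; difference -1.34 ± 0.28). Lrtm1, which encodes a leucine-rich repeat membrane protein, had 8.71 and 8.27 in mice 3 and 4 and 6.53 to 7.23 in the others, against 8.58 to 9.25 on lard (-1.50 ± 0.29). Slc10a2, the sodium-dependent bile acid carrier of ileum and bile duct cells, had 8.65 and 8.70 in mice 3 and 4 and 6.71 to 8.27 in the others, against 8.64 to 9.30 on lard (-1.12 ± 0.27). Gpc1, a cell-surface heparan sulfate proteoglycan, fell by 1.07 ± 0.20 and Serpina12, which encodes the secreted protein vaspin, by 1.06 ± 0.23. Their limma adjusted p-values lay between 0.0296 and 0.0483.

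Mmd2 differed from these genes in that all 6 fish oil mice lay below all 6 lard mice. This member of the progestin and adipoQ receptor family had 7.99, 7.59, 8.61, 8.67, 8.27 and 7.70 on fish oil, against 9.56, 9.09, 9.61, 8.74, 9.60 and 9.54 on lard. The difference was -1.22 ± 0.26 (limma adjusted p = 0.0344).

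Across all called genes the pattern of mice 3 and 4 was not general. Of the 120 genes called lower, 105 were below the whole lard range in fish oil mouse 3 and 64 in mouse 4, against 98 in mouse 1, 119 in mouse 2, 111 in mouse 5 and 118 in mouse 6. Of the 41 genes called higher, between 32 (mice 1 and 4) and 40 (mice 2 and 5) were above the whole lard range in a given fish oil mouse. The genes were called from these same mice, so high counts are partly built in. Over all 19938 genes, 15.5% to 26.6% lay below the lard range in a given fish oil mouse, with 26.6% in mouse 3 and 16.6% in mouse 4. The share above it was 15.0% to 29.8%. Mice 1 and 4 had 66.5% and 68.4% of all genes inside the lard range, and the other 4 fish oil mice 49.6% to 55.0%.

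**Figure D2:**
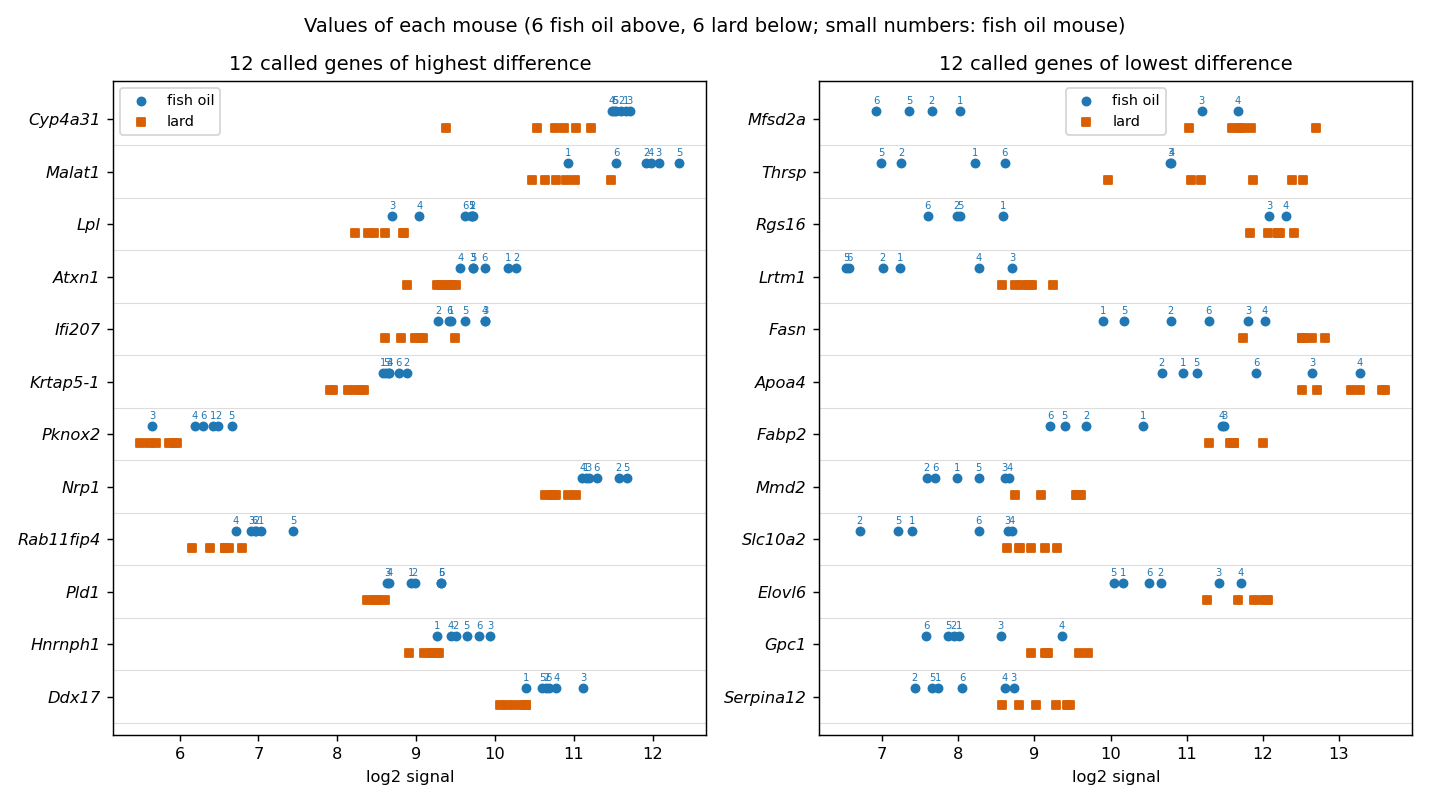
Log2 signal (horizontal axis) of each mouse for the 12 called genes of highest difference (left) and the 12 of lowest difference (right), pseudogenes and unnamed transcripts passed over; blue circles are the 6 fish oil mice with their numbers, orange squares below them the 6 lard mice. In Mfsd2a, Rgs16 and Fabp2 fish oil mice 3 and 4 sit among the lard mice, while in Cyp4a31, Krtap5-1 and Nrp1 all 6 fish oil mice lie above every lard mouse.

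Nearly all genes of fatty acid synthesis had lower signals on fish oil, and 3 of them passed the test. Of 23 genes listed, 22 were measured, 3 fell (13.6%, against 0.602% of all genes) and 0 rose, and 21 of the 22 differences were negative with a median of -0.76. At an unadjusted p under 0.05, 17 of the 22 were lower, against 9.34% of all genes. The mean signal of the list was 10.61, 10.70, 11.36, 11.54, 10.23 and 10.45 in fish oil mice 1 to 6, against 11.23 to 11.70 in the lard mice, so mice 3 and 4 lay inside the lard range and the others below it. The list was chosen with lower values in these data already known.

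The enzymes that supply carbon and reducing power came first in the pathway. All 6 had negative differences (median -0.61) and 0 were called. Acly, which makes cytosolic acetyl-CoA from citrate, had a median of 10.19 on fish oil (9.95 to 10.90) and 11.19 on lard (10.59 to 11.37), a difference of -0.80 ± 0.29. Pklr, the liver pyruvate kinase, differed by -0.75 ± 0.20 and Me1, malic enzyme, by -0.78 ± 0.31.

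Among the 3 carboxylases and synthase, only Fasn was called. Fasn, fatty acid synthase, had 9.90, 10.79, 11.81, 12.03, 10.18 and 11.29 in fish oil mice 1 to 6, against 12.65, 11.74, 12.81, 12.54, 12.51 and 12.51 in lard mice 1 to 6. Fish oil mice 3 and 4 exceeded lard mouse 2 alone and the difference was -1.46 ± 0.33 (limma adjusted p = 0.0391). Acaca, the cytosolic acetyl-CoA carboxylase, had a median of 10.07 on fish oil (9.18 to 10.65) and 10.99 on lard (10.39 to 11.19), a difference of -0.91 ± 0.26 with a limma adjusted p of 0.0847.

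All 7 desaturases and elongases had negative differences (median -0.80). Elovl6, which lengthens palmitate to stearate, was called, with a median of 10.58 on fish oil (10.04 to 11.71) and 11.94 on lard (11.27 to 12.07) and a difference of -1.07 ± 0.25 (limma adjusted p = 0.0452). Fads1 and Fads2, the delta-5 and delta-6 desaturases of polyunsaturated fatty acids, differed by -1.08 ± 0.28 and -0.80 ± 0.20 (limma adjusted p = 0.061 and 0.0591). Scd1, stearoyl-CoA desaturase, had 13.36, 13.07, 14.00, 14.02, 9.89 and 11.41 in fish oil mice 1 to 6, against 13.76 to 14.06 on lard. Its difference of -1.29 ± 0.47 was not called and came to -0.30 without fish oil mice 5 and 6. Scd1 lies near the array maximum (14.31 to 14.46 in the 12 arrays), where differences can be compressed.

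Of the 6 regulators, Thrsp was called and 5 had negative differences. Srebf1, which encodes SREBP-1, had 10.55, 11.18, 10.28, 10.69, 9.88 and 9.78 in fish oil mice 1 to 6, against 12.06, 10.98, 11.46, 10.96, 11.59 and 10.83 in lard mice 1 to 6. Only fish oil mouse 2 entered the lard range, and the difference was -0.92 ± 0.24 (limma adjusted p = 0.0644). Nr1h3, which encodes LXR-alpha, differed by -0.04 ± 0.07. Insig1, an endoplasmic reticulum protein that holds back SREBP processing, was called from the list of sterol regulation: it had 11.28, 11.49, 12.18, 12.44, 10.84 and 11.59 on fish oil, against 12.34 to 12.80 on lard, a difference of -0.91 ± 0.20 (limma adjusted p = 0.0386).

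Genes of cholesterol synthesis gave no called member among 17, and their median difference was -0.13. Sqle, squalene epoxidase, had 6.98 to 7.56 in fish oil mice 1 to 5 and 9.13 in mouse 6, against 6.53 to 7.62 on lard. Its difference of 0.53 ± 0.34 was not called.

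Lipid droplet genes (18 measured) gave 0 calls, and 16 differences were negative with a median of -0.28. G0s2, an inhibitor of the lipase ATGL, had a median of 8.08 on fish oil (7.52 to 9.92) and 10.06 on lard (8.67 to 10.26) and a difference of -1.34 ± 0.35 (limma adjusted p = 0.0624). Cidea and Cidec, which enlarge droplets by fusing them, differed by -1.71 ± 0.67 and -1.54 ± 0.60. Both spanned several log2 units within each diet: Cidea ran from 5.31 to 9.78 on fish oil and from 5.37 to 9.97 on lard. In synthesis of triglycerides and phospholipids, 1 of 27 genes fell (Mfsd2a), against 0.602% of all genes, and 20 differences were negative.

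Lipoprotein genes held 1 called in each direction among 23, against 0.206% of all genes called higher and 0.602% called lower. Apoa4, an apolipoprotein of triglyceride-rich particles, had 10.95, 10.67, 12.65, 13.27, 11.13 and 11.91 in fish oil mice 1 to 6, against 12.51 to 13.61 on lard, and fell by 1.37 ± 0.31 (limma adjusted p = 0.0386). Lpl, lipoprotein lipase, which adult hepatocytes express little, had 9.71, 9.72, 8.70, 9.04, 9.70 and 9.62 on fish oil, against 8.23 to 8.84 on lard. Only fish oil mouse 3 fell within the lard range, and Lpl rose by 0.85 ± 0.17 (limma adjusted p = 0.0322). Lpl is also made by macrophages, and the mean signal of 20 Kupffer cell and macrophage markers was 9.09, 9.02, 8.40, 8.55, 9.21 and 8.90 in fish oil mice 1 to 6, against 8.47 to 8.88 on lard. Of those markers 0 were called and 17 differences were positive (median 0.25), and their part in the Lpl difference was not tested.

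Of 26 peroxisomal and omega oxidation genes, 3 rose (11.5%, against 0.206% of all genes) and 0 fell, with 13 differences of each sign and a median of 0.02. The omega hydroxylases, mostly of the Cyp4a family, attack the far end of a fatty acid and are classic PPAR-alpha targets. Of 7 measured, 6 had positive differences (median 0.44) and 1 was called higher, against 0.206% of all genes.

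Cyp4a31 had 11.66, 11.60, 11.71, 11.48, 11.53 and 11.51 in fish oil mice 1 to 6, against 9.38, 10.53, 10.76, 11.22, 10.88 and 11.03 in lard mice 1 to 6. The groups did not overlap, the fish oil mice lay close together, and the difference was 0.95 ± 0.22 (limma adjusted p = 0.0434). Cyp4a14 had 13.06 to 13.47 on fish oil, against 9.48, 12.07, 12.52, 12.82, 12.06 and 12.73 in lard mice 1 to 6. These groups did not overlap either, and its difference of 1.36 ± 0.35 missed the threshold (limma adjusted p = 0.0583). Lard mouse 1 was the lowest in both genes. Cyp4a genes are close copies of each other, so their probe sets may read more than 1 member.

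Of 19 peroxisomal enzymes, 2 rose (against 0.206% of all genes), while 12 of the 19 differences were negative (median -0.08). Ehhadh, the bifunctional enzyme of peroxisomal beta oxidation, had a median of 12.64 on fish oil (12.33 to 12.88) and 12.20 on lard (12.02 to 12.37) and rose by 0.42 ± 0.08. Crot, which hands shortened fatty acids to carnitine, lay at 13.05 to 13.36 on fish oil and 12.54 to 12.99 on lard with no overlap and rose by 0.37 ± 0.08 (limma adjusted p = 0.0322 for Ehhadh and 0.0386 for Crot). Other members had negative differences without a call, among them the acyl-CoA thioesterases Acot3 (-0.97 ± 0.37) and Acot4 (-1.01 ± 0.31).

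Mitochondrial fatty acid oxidation (18 genes) gave 0 calls, and its differences ran from -0.23 to 0.14. Cpt1a, which admits long-chain fatty acids to the mitochondrion, had a median of 12.46 on fish oil (12.01 to 12.83) and 12.66 on lard (12.56 to 12.85), and its difference was -0.23 ± 0.11. Pdk4, a kinase that spares pyruvate in fasting, had 7.12 to 9.19 on fish oil, against 8.83 to 9.75 in lard mice 2 to 6 and 7.16 in lard mouse 1, a difference of -0.81 ± 0.38.

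In carbohydrate metabolism, the 12 genes of glycolysis and glycogen all had negative differences (median -0.23) and 1 fell, against 0.602% of all genes. Gbe1, the glycogen branching enzyme, had 11.33, 11.25, 11.87, 11.83, 10.74 and 10.89 in fish oil mice 1 to 6, against 11.65 to 12.18 on lard, and fell by 0.64 ± 0.15 (limma adjusted p = 0.0429). Khk, ketohexokinase, which starts fructose breakdown, differed by -0.45 ± 0.12 and was not called. The 7 genes of gluconeogenesis gave 0 calls and a median of -0.14.

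The 26 bile acid genes gave 0 calls and a median of -0.03. Cyp7a1, the rate-limiting enzyme of bile acid synthesis, had 8.58, 8.41, 10.35, 10.56, 7.90 and 8.50 in fish oil mice 1 to 6, against 11.64, 10.36, 11.11, 10.47, 10.49 and 9.34 in lard mice 1 to 6. Its difference of -1.52 ± 0.38 missed the threshold (limma adjusted p = 0.0547). Fish oil mice 3 and 4 again had the highest signals of their group.

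Other named genes that rose are known from signalling, transcription and RNA processing. Malat1, a long noncoding RNA of the nucleus, had 10.93, 11.92, 12.08, 11.98, 12.34 and 11.54 in fish oil mice 1 to 6, against 10.47 to 11.47 on lard, a difference of 0.92 ± 0.21. Fish oil mouse 1 was inside the lard range and the other 5 were above it. Atxn1, a transcriptional corepressor, lay at 9.56 to 10.27 on fish oil and 8.88 to 9.50 on lard (0.58 ± 0.14), and Nrp1, a receptor for VEGF and semaphorins, at 11.11 to 11.67 on fish oil and 10.63 to 11.03 on lard (0.52 ± 0.11). Neither of these genes had overlapping groups, and the same held for Krtap5-1, a keratin-associated protein gene (0.55 ± 0.11), and Pld1, phospholipase D1 (0.48 ± 0.10).

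Another 5 named genes rose with overlap between the diets. They were Ifi207 of the interferon-inducible PYHIN family (0.58 ± 0.13), the homeobox gene Pknox2 (0.52 ± 0.12), the Rab11 effector gene Rab11fip4 (0.48 ± 0.11), and Hnrnph1 and Ddx17, a splicing factor and an RNA helicase (0.43 ± 0.10 each). Limma adjusted p-values of the named risers outside lipid metabolism lay between 0.0322 and 0.0434. In the other direction, Psmb9, a subunit of the immunoproteasome, lay at 8.34 to 8.82 on fish oil and 8.89 to 9.15 on lard with no overlap (-0.43 ± 0.10, limma adjusted p = 0.0423). It was the 1 called gene among 24 of the interferon response, against 0.602% of all genes called lower.

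**Figure D3:**
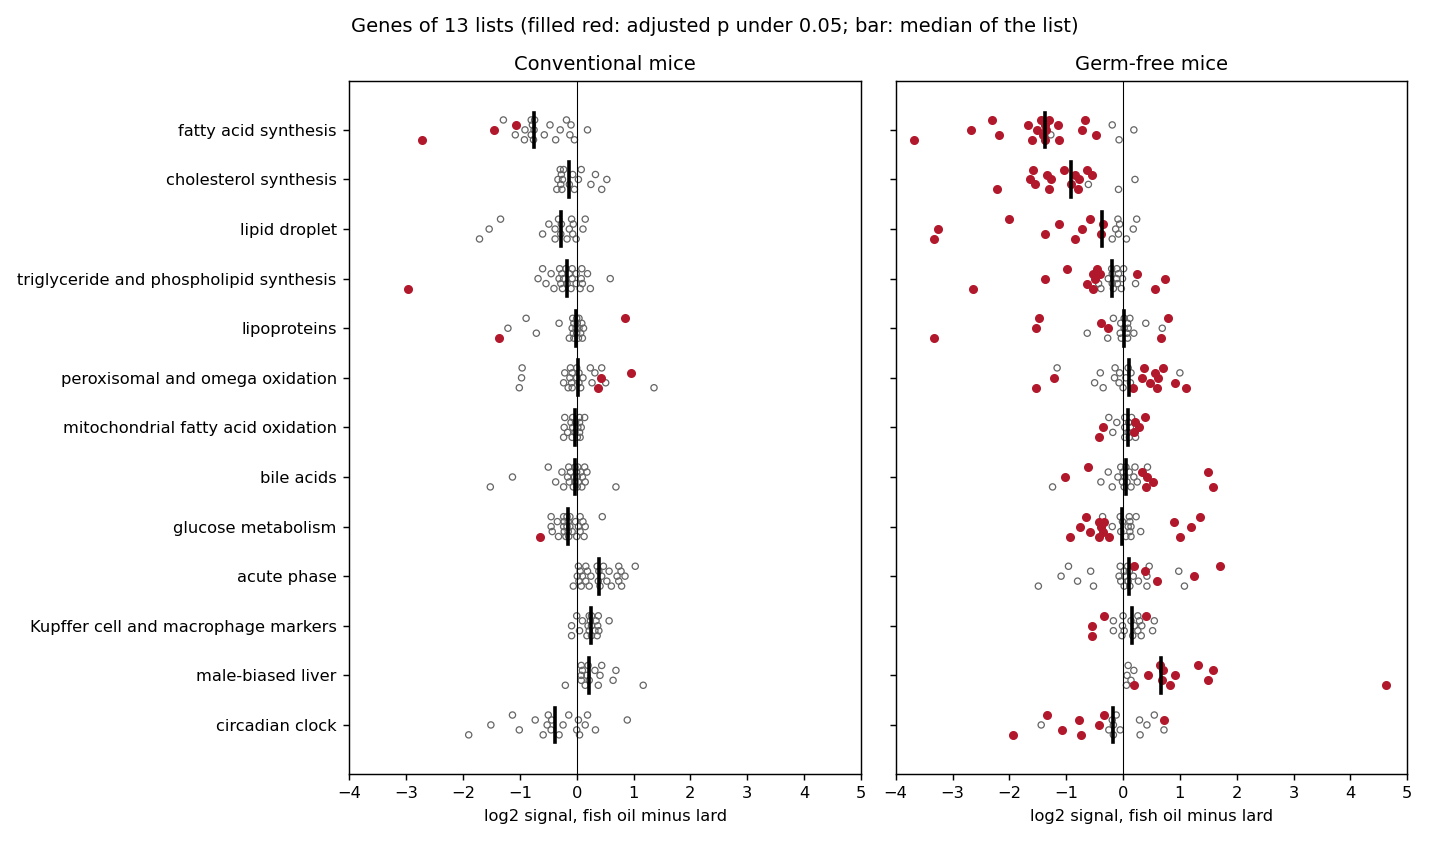
Difference of each gene (horizontal axis, log2 signal, fish oil minus lard) in 13 of the gene lists, in conventional (left) and germ-free mice (right); filled red points were called and black bars are list medians. In conventional mice the fatty acid synthesis median lies at -0.76 and the acute phase median at 0.38; in germ-free mice they lie at -1.37 and 0.10.

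Acute phase genes gave 0 calls among 28, yet 27 differences were positive (median 0.38) and 12 were higher at an unadjusted p under 0.05, against 7.22% of all genes. The mean signal of the list was 11.07, 10.75, 10.90, 10.87, 12.14 and 12.19 in fish oil mice 1 to 6, against 10.69 to 11.25 on lard. Only fish oil mice 5 and 6 exceeded every lard mouse, and the median without them was 0.03. Saa1, serum amyloid A1, had 7.61, 6.03, 6.53, 6.48, 11.64 and 10.81 in fish oil mice 1 to 6, against 6.70 to 8.26 on lard. Lcn2, lipocalin 2, showed the same pair of high mice, with 13.17 and 13.16 in mice 5 and 6 and 9.61 to 10.32 in mice 1 to 4, against 9.21 to 11.55 on lard.

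Neutrophil markers moved with these 2 mice. The mean signal of 17 neutrophil markers was 6.25 and 6.01 in fish oil mice 5 and 6 and 5.67 to 5.81 in mice 1 to 4, against 5.58 to 5.80 on lard. Of these markers 0 were called, 15 differences were positive and the median was 0.16 (0.03 without mice 5 and 6); their part in the acute phase values was not tested. Without fish oil mice 5 and 6 limma called 21 genes, 10 of them among the 161.

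Other lists had differences mostly of one sign with no call. Of 23 genes of DNA replication and mitosis 22 differences were negative (median -0.27), and of 16 male-biased liver genes 15 were positive (median 0.21). Selenbp2, a male-biased gene for a selenium-binding protein, had a median of 12.38 on fish oil (10.33 to 12.68) and 10.40 on lard (10.16 to 12.08) and a difference of 1.17 ± 0.36. Stellate cell and fibroblast markers (20 genes, median -0.05) and endothelial markers (18 genes, median 0.05) gave 0 calls. Over the 36 lists, 649 genes were measured, of which 4 rose and 10 fell, against 0.206% and 0.602% of all genes.

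The clock index, Dbp minus Arntl, differed between the diets and was spread widely on fish oil. It was -1.55, -2.04, 2.49, 3.66, 0.05 and -1.76 in fish oil mice 1 to 6, against 4.33, 2.47, 2.40, 1.96, 4.24 and 2.17 in lard mice 1 to 6. Among the lard mice, 1 and 5 stood above the other 4. Fish oil mice 3 and 4 lay within their range and the other 4 fish oil mice lay below all of them. The mean was 0.14 ± 2.41 on fish oil and 2.93 ± 1.07 on lard (SD, n = 6 each). The difference was -2.79 ± 1.08, with an SE from these 2 groups alone. It had p = 0.0325 in a two-sided exact permutation test over all splits of the 12 mice into groups of 6. The smallest possible p in that test is 0.00216.

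The spread of the index was compared as well. The mean absolute deviation from the group median was 1.93 on fish oil and 0.75 on lard, a difference of 1.18 (permutation p = 0.147). Here the deviations were permuted, each taken from its own diet's median, and the medians were not recomputed after a split. The p-values for spread are therefore approximate. For Nr1d1 minus Arntl the spread difference was 0.84 (permutation p = 0.00216) and for Per2 minus Arntl -0.08 (permutation p = 0.859). Without fish oil mice 5 and 6 it was 1.68 for Dbp minus Arntl (permutation p = 0.00952). The difference in means depended on the genes and mice used: it was -1.23 (exact permutation p = 0.0455) for an index of 9 genes minus 4 genes, and -2.29 (exact permutation p = 0.143) without fish oil mice 5 and 6. Leaving out 1 mouse at a time gave -3.50 to -2.35, with exact permutation p-values of 0.0216 to 0.0649.

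**Figure D4:**
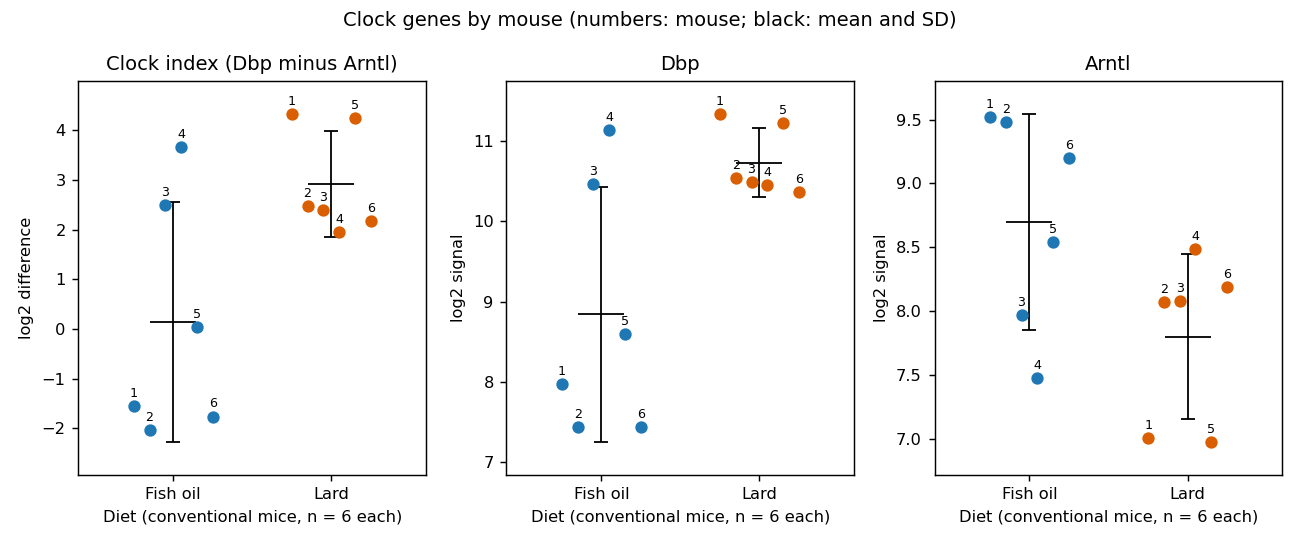
Clock index (left), Dbp (middle) and Arntl (right) of each mouse on the log2 scale, fish oil in blue left of lard in orange, with mouse numbers and the mean and SD in black. Fish oil mice 3 and 4 have indices of 2.49 and 3.66, within the lard range of 1.96 to 4.33, and the other 4 lie between -2.04 and 0.05.

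Of the 23 clock genes listed, 20 were measured and 0 were called by limma, while 2 were higher and 10 lower at an unadjusted p under 0.05 (against 7.22% and 9.34% of all genes). Their median difference was -0.37. The 3 genes known to peak near the start of the light phase had positive differences (median 0.33). Arntl had 9.52, 9.48, 7.97, 7.48, 8.54 and 9.20 in fish oil mice 1 to 6, against 7.01, 8.07, 8.08, 8.49, 6.98 and 8.19 in lard mice 1 to 6, a difference of 0.89 ± 0.36. Clock, its partner, differed by 0.33 ± 0.11, and Nfil3, a repressor at the sites DBP binds, by 0.15 ± 0.18.

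Genes that peak in the middle of the light phase had differences below 0 in all 4 cases (median -1.01). Dbp itself had 7.97, 7.44, 10.46, 11.14, 8.59 and 7.44 in fish oil mice 1 to 6, against 11.34, 10.54, 10.49, 10.45, 11.22 and 10.36 in lard mice 1 to 6, a difference of -1.90 ± 0.54 (limma adjusted p = 0.0819). Ciart, a repressor of the loop, had 6.56, 5.96, 7.69, 8.67, 6.72 and 6.60 on fish oil, against 10.45, 7.57, 8.05, 7.98, 9.91 and 7.30 on lard (-1.51 ± 0.55). Lard mice 1 and 5, the pair of highest index, had the highest Ciart signals of the 12 livers. The nuclear receptor genes Nr1d1 and Nr1d2, whose products repress Arntl, differed by -0.44 ± 0.17 and -0.52 ± 0.15.

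Genes that peak around the end of the light phase also had differences below 0 in all 6 cases (median -0.55). Per3 had 6.42, 6.58, 7.63, 8.22, 6.90 and 6.57 in fish oil mice 1 to 6, against 9.19, 7.76, 7.81, 7.66, 8.90 and 7.75 in lard mice 1 to 6 (-1.13 ± 0.32, limma adjusted p = 0.0819). All fish oil mice except mouse 4 lay below every lard mouse, mouse 3 by a small margin. Tef, which binds the same sites as DBP, differed by -0.73 ± 0.23, Per2 by -0.59 ± 0.21, Per1 by -0.45 ± 0.29, the repressor gene Bhlhe41 by -0.50 ± 0.28 and Hlf by -0.24 ± 0.10.

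Of the 3 genes with a peak in the dark phase, Bhlhe40, a repressor related to Bhlhe41, had 8.81, 9.13, 10.28, 10.62, 8.70 and 8.49 in fish oil mice 1 to 6, against 10.22 to 10.46 on lard (-1.01 ± 0.29, limma adjusted p = 0.0829). The cryptochrome genes Cry1 and Cry2 differed by 0.19 ± 0.18 and -0.31 ± 0.10. The kinase genes Csnk1d and Csnk1e and the genes Rora and Cipc, which have no fixed peak in this list, had a median difference of 0.01 and ran from -0.14 to 0.05. A separate list of clock output genes had 18 measured, of which 1 was called lower (Rgs16), against 0.602% of all genes. Of its differences 12 were negative (median -0.22).

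**Figure D5:**
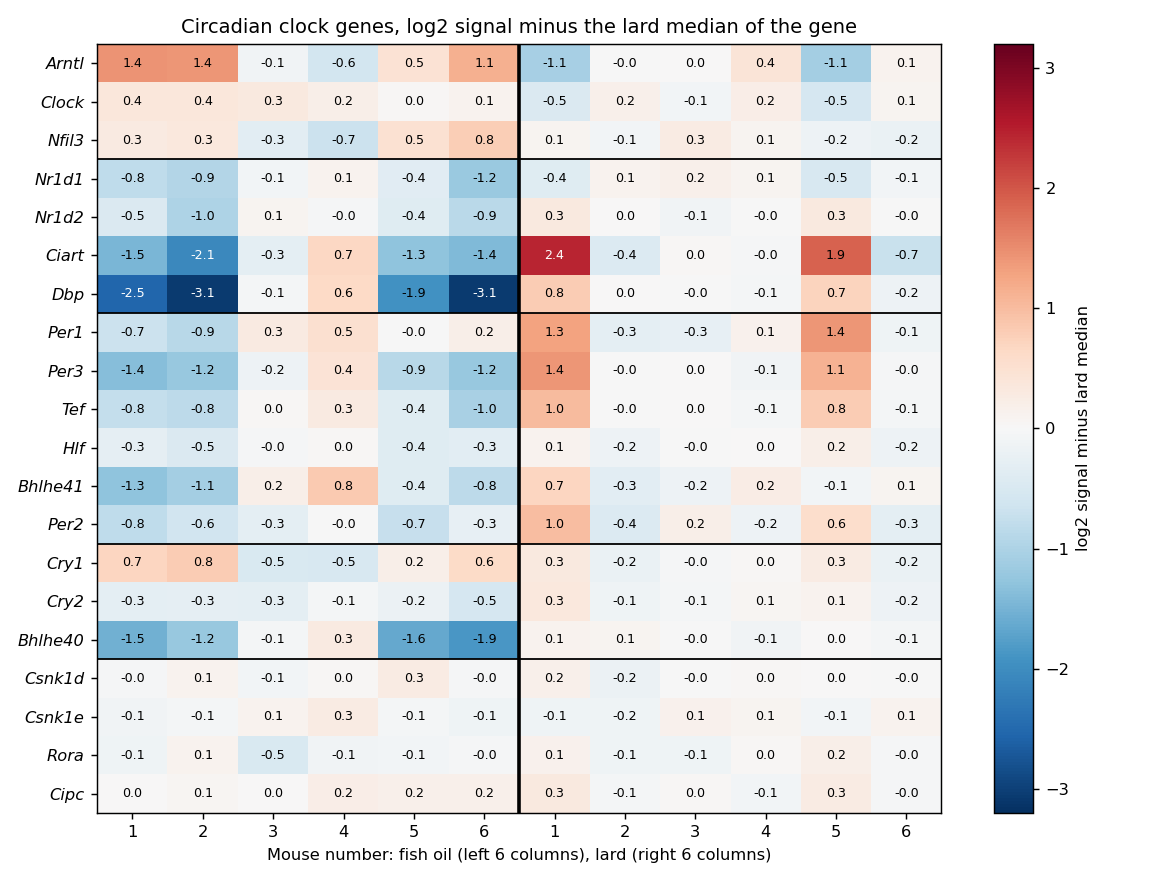
Log2 signal of 20 clock genes minus the gene's lard median in fish oil mice 1 to 6 (left) and lard mice 1 to 6 (right), with lines between genes of different known peak times, from the start of the light phase at the top to no fixed peak at the bottom. In fish oil mice 1, 2 and 6 Arntl reads 9.20 to 9.52, against a lard median of 8.08, and Dbp reads 7.44 to 7.97, against a lard median of 10.51.

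Promoter sequence was read for the clock genes because E-boxes and D-boxes are the elements through which the loop and DBP are known to act. RefSeq promoters (GRCm38.p6, the 250 bases before each annotated start) matched 17 of the 20 measured clock genes. The E-box CACGTG, searched on both strands, was present for 6 of them (Ciart, Per1, Tef, Bhlhe41, Cry1 and Cipc) and for 6.86% of all 27025 genes (6.02% of 32851 windows, since a gene can have several starts). The D-box TTANGTAA, searched on both strands, was present for 1 (Per3) and for 2.44% of all genes (2.06% of windows), and 10 genes, Dbp and Arntl among them, held neither in this window. The windows of 4 genes from this section follow 5′ to 3′ on the gene's strand, with the motif in capitals. Ciart is 1 gene with 3 E-boxes and Per3 the 1 gene with D-boxes, while Tef and Bhlhe41 are examples with an E-box. The E-box genes Per1, Cry1 and Cipc are not shown, and a link between motif and diet difference was not tested. Ciart lies at chr3:95882229-95882478 on the minus strand, with E-boxes that begin at -116, -58 and -44 from the start. Per3 lies at chr4:151044666-151044915 on the minus strand, with D-boxes at -205 and -158. Tef lies at chr15:81802423-81802672 on the plus strand, with an E-box at -127. Tef has another start, whose window holds an E-box at -138 and is not shown. Bhlhe41 lies at chr6:145865421-145865670 on the minus strand, with an E-box at -153.
Ciart: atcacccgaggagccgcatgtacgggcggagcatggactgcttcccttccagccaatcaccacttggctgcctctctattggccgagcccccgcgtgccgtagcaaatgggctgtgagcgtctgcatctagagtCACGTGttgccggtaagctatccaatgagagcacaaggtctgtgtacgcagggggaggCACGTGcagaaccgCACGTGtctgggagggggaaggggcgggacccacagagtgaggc
Per3: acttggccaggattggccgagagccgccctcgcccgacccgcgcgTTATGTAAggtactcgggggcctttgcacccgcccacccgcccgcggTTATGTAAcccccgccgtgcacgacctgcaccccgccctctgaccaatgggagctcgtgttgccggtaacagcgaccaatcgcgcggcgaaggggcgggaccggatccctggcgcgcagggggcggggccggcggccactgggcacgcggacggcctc
Tef: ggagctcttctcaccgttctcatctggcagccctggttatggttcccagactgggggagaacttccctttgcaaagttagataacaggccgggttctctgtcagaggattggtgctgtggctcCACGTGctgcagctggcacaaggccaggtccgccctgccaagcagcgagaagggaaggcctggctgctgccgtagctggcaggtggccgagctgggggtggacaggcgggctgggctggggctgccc
Bhlhe41: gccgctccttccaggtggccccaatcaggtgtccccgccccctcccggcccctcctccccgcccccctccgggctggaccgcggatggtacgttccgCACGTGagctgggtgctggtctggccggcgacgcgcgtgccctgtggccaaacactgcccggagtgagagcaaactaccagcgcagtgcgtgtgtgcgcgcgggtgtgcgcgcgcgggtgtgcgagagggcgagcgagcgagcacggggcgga
Among all windows, 20 hold 3 or more E-boxes and 24 hold 2 or more D-boxes. A match describes the letters in the window and is not a measured binding site.

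Genes that varied with the clock index inside the groups were found with limma on all 23 samples, with group means removed. The index was 3.24, 3.67, 4.09, 4.08, 0.12 and -0.77 in fish oil germ-free mice 1 to 6, and 3.60 to 4.59 in lard germ-free mice. Fish oil germ-free mice 5 and 6 also had low array 75th percentiles (8.427 and 8.422). So had lard germ-free mice 5 and 6 (8.424 and 8.436), with indices of 3.60 and 4.52. The part of such array differences in the slopes was not tested. Of 19936 genes, 954 (4.79%) had a slope, 624 positive (3.13%) and 330 negative (1.66%), Dbp and Arntl left out since they define the index. The balance of signs depended on the setting: 955 positive and 207 negative once arrays had equal medians, 900 positive and 910 negative with array weights, and 156 positive and 129 negative with the 75th percentile covariate. On the 12 conventional mice alone 24 genes had a slope, and with mouse number as a block 81 did. Of the 161 genes called between the diets, 19 (11.8%) had a slope, against 4.79% of all genes. In all 19 the slope had the opposite sign to the diet difference. Rgs16 (0.564), Thrsp (0.485) and Mfsd2a (0.44) were among them. The positive slopes of smallest p were those of Per3 (0.339 log2 units per unit of index), Tef (0.239) and Nr1d2 (0.155), then Upp2, a uridine phosphorylase gene (0.390), Wee1, a kinase that delays mitosis (0.439), and Ciart (0.553). The negative ones were Loxl4, a lysyl oxidase-like gene (-0.227), Elovl3, a fatty acid elongase gene that cycles in liver (-0.230), Clpx, of the mitochondrial ClpXP protease (-0.191), Asap2 (-0.149), the phosphate transporter gene Slc34a2 (-0.233) and Ypel2 (-0.167). Wee1 illustrates the pattern: it had 7.23, 7.05, 9.02, 9.39, 6.44 and 6.55 in fish oil mice 1 to 6, against 9.59, 8.18, 8.72, 8.27, 9.75 and 8.85 in lard mice 1 to 6. Mice 3 and 4 were the highest on fish oil and mice 1 and 5 the highest on lard, as in the index.

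The genes most like Dbp were named by the correlation over the 12 conventional mice after removing each diet's mean, which shares the arrays and is given as a description. They were Azi2 (r = 0.943), Angel2 (0.940) and Harbi1 (0.936), and the least like it were Loxl4 (-0.940), Morrbid (-0.934) and Ubqln1 (-0.927). Azi2, Angel2 and Harbi1 did not differ by a call between the diets (-0.08 ± 0.08, -0.19 ± 0.12 and -0.17 ± 0.10).

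Adjusted for the clock index, the diet comparison gave 0 called genes in limma. All 161 called genes kept their sign and an unadjusted p under 0.05, but they were picked for small p from these same mice. The median of their size relative to the fit without the covariate was 0.78. Among the named genes that were called, the difference came to -1.15 in Rgs16, -0.54 in Slc10a2 and -1.37 in Thrsp, the 3 that lost the largest share of their size. Lrtm1 (-1.01), Crot (0.25), Pld1 (0.33), Mmd2 (-0.92), Insig1 (-0.73), Atxn1 (0.49), Psmb9 (-0.38) and Nrp1 (0.51) lost less, and Malat1 (1.17), Ifi207 (0.68), Ddx17 (0.50) and Hnrnph1 (0.48) were larger. The fatty acid synthesis median came to -0.39 and the clock gene median to -0.09. The clock list holds Dbp and Arntl, which define the index, so the change in its median was partly built in. Diet and clock index differ together in these mice, and the share of each in a gene's difference was not tested.

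The same diets in germ-free mice gave a separate set of animals, with 5 fish oil samples (2 near-identical arrays averaged) and 6 lard samples and the spread pooled in the same fit. There, 2625 genes were called (13.2%), 913 higher (4.58%) and 1712 lower (8.59%). Of the 161 genes called in conventional mice, 88 were called in the same direction in germ-free mice and 0 in the opposite one, which is 54.7% of the conventional calls and 3.35% of the germ-free calls. They comprised 70 of the 120 lower genes (58.3%) and 18 of the 41 higher genes (43.9%). Both comparisons took each gene's spread from the same fit, so a small spread favours a call in both. The overlap is therefore not fully independent support. Thrsp (-3.67 ± 0.59), Fasn (-2.31 ± 0.35), Mmd2 (-2.74 ± 0.27), Mfsd2a (-2.64 ± 0.61), Cyp4a31 (1.11 ± 0.23) and Crot (0.56 ± 0.09) were among the 88, while Malat1 (0.24 ± 0.22), Ifi207 (-0.16 ± 0.14) and Pld1 (0.06 ± 0.10) were not called in germ-free mice.

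Where the diet difference of conventional mice differed from that of germ-free mice was tested with an interaction term. It called 121 genes (0.607%), 4 of them among the 161: Apoa4, Gga2, Gm16008 and Pih1d1. Apoa4 fell by 1.37 in conventional and by 3.32 in germ-free mice (interaction 1.95 ± 0.44, limma adjusted p = 0.0467). Sqle differed by 0.53 in conventional and -2.22 in germ-free mice (2.75 ± 0.49), and 6 of the 17 cholesterol synthesis genes had an interaction. Hsd3b5, a male-specific steroid dehydrogenase gene of mouse liver, differed by 0.41 in conventional and 4.62 in germ-free mice (-4.21 ± 0.81). Of the 22 fatty acid synthesis genes, 0 were called for interaction, so a difference between conventional and germ-free mice was not shown for them.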

How the data were processed

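Liver RNA of 24 mice was measured on Affymetrix MoGene 1.0 ST arrays, 1 array a mouse. The authors deposited log2 values, which the file headers credit to RMA run with apt engine 1.1.2800.28061. RMA subtracts background, equalises the arrays' distributions and summarises probes, so a difference is relative to the rest of the array. For the probe sets, the build was not given in the sources used here. The array number limits the precision.

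Of 35556 probe sets, 21789 had 1 symbol, 1621 several and 12146 none. For each of 19938 genes the probe set of highest mean was kept; 999 genes had several. The deposited tables differed by at most 0.005. Arrays of fish oil germ-free mice 3 and 4 differed less than any other pair (SD 0.123 over 300 variable genes, next pair 0.349) and were averaged as 1 sample.

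Group means were fitted with limma 3.58.1 in R 4.3.3 over all 4 groups with a pooled spread and Benjamini-Hochberg adjustment over all genes, calling an adjusted p under 0.05. On simulated data for the conventional comparison, 81% of changes of 0.5 log2 units and 96% of changes of 1 log2 unit were recovered (100 genes each), with 10 false calls among 19938 genes. The simulated noise was independent between mice and had the same spread in all 4 groups. In the data the median SD was 0.204 in fish oil conventional mice and 0.12 to 0.122 in the other groups. The recovery and false calls therefore do not carry over to the data. The difference in mean clock index was tested by exact permutation over mice. Its spread was tested by permuting deviations from each diet's own median, which gives approximate p-values.

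Genes, lists and comparisons were chosen with earlier results of these data known. Named genes were the 12 called genes of highest and 12 of lowest difference (unnamed, predicted and pseudogene transcripts passed over), up to 3 called genes of each of 36 lists, all clock genes, fixed lipid, bile acid and acute phase genes, the 6 list genes of largest interaction, 6 slopes of each sign, and the 3 genes most and least like Dbp. Genes named beyond these, such as Acly or Selenbp2, were chosen after their values were seen. Npas2 had no value here. Alternatives covered scaling, variance model, probe set choice, level filter, samples, clock covariate and mouse number as a block. Same-numbered fish oil and lard conventional mice deviated together with correlations of only -0.161 to 0.059, so no pairing by number was seen between them. Those correlations did not cover the germ-free mice. Germ-free mice 5 and 6 of both diets had a 75th percentile of 8.422 to 8.436, against 8.511 or more in the other germ-free arrays. Whether mouse number marks a processing batch was not tested.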

Additional observations from a re-analysis of the deposited data

Results flagged for a closer look

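In 6 of 152 groups of 6 mice, 1 mouse stood apart by Dixon's test at the 95% level; chance gives about 1 group in 20. Lard mouse 1 accounted for 3 of them: it had 9.38 for Cyp4a31 (other lard mice 10.53 to 11.22), 9.48 for Cyp4a14 (12.06 to 12.82) and 7.16 for Pdk4 (8.83 to 9.75). The other 3 were Atxn1 in lard mouse 5 (8.88, against 9.27 to 9.50 in the other lard mice), Fasn in lard mouse 2 (11.74, against 12.51 to 12.81) and Sqle in fish oil mouse 6 (9.13, against 6.98 to 7.56 in the other fish oil mice).

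The diet difference of conventional mice minus that of germ-free mice was -4.21 for Hsd3b5, 2.75 for Sqle, 2.47 for Cyp17a1, 1.95 for Apoa4, 1.89 for Cyp39a1 and -1.53 for Dnajb1, each called by limma's interaction term. Cyp17a1, a steroid hydroxylase gene, differed by -0.88 in conventional and -3.35 in germ-free mice, Cyp39a1, an oxysterol hydroxylase gene, by -0.92 and -2.81, and Dnajb1, a heat shock co-chaperone gene, by -0.24 in conventional and 1.29 in germ-free mice.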

How the results depend on the processing

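The 161 diet calls became 282 with genes above the median level, 264 with equal array medians, 67 with the 75th percentile covariate, 328 with array weights, 51 with weights per group, 0 on conventional mice alone, 0 with the clock covariate, 21 without fish oil mice 5 and 6, 34 at 1.5-fold or more, and 0 to 743 leaving out 1 mouse. The share higher was 25.5%, against 41.9% after a second quantile normalization and 58.2% with the 75th percentile covariate. The 14 list calls became 31, 23, 3, 47, 8, 0, 0 and 0 under the first 8 of these settings in that order, 9 with trend and robust, 22 with 24 arrays, and 0 to 75 leaving out 1 mouse. The 121 interaction calls became 387 with the 75th percentile covariate, 79 with trend and robust, 260 with array weights, 209 with 24 arrays, 283 with the clock covariate, 457 without mice 5 and 6, 73 at 1.5-fold or more, and 25 to 206 leaving out 1 mouse. The 954 slopes became 285 with the 75th percentile covariate, 1810 with array weights, 1623 with weights per group, 24 on conventional mice alone, 1553 with 24 arrays, and 254 to 1383 leaving out 1 mouse. The causes were not tested.

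With mouse number as a replicate block, limma made 230 diet calls, 24 list calls, 40 interaction calls and 81 slope calls, and the clock index difference stayed at -2.79 with an exact sign-flip p of 0.125. In 0 of 6 numbers did the fish oil mouse correlate best with its own number.

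The clock index difference was -1.34 (exact permutation p = 0.0563) for Nr1d1 minus Arntl, chosen after seeing the data because Nr1d1 minus Npas2 could not be run, -1.49 (p = 0.0519) for Per2 minus Arntl, -2.29 without mice 5 and 6, and -3.50 to -2.35 leaving out 1 mouse. The spread difference of the index, tested by permuting deviations from each diet's own median, had an approximate p of 0.147 for Dbp minus Arntl. It was 0.84 for Nr1d1 minus Arntl (permutation p = 0.00216, the smallest possible) and -0.08 for Per2 minus Arntl (permutation p = 0.859). Without mice 5 and 6 it was 1.68 (permutation p = 0.00952), so the call changed in 2 of these 3.

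Signs turned with the clock covariate in Arntl (-0.20), Nfil3 (-0.29), Ciart (0.03), Per1 (0.19), Bhlhe41 (0.29), Cry1 (-0.19), Elovl3 (-0.01), Slc34a2 (-0.10), Ypel2 (-0.36), Azi2 (0.09), Angel2 (0.13), Harbi1 (0.06), Morrbid (-0.05) and Ubqln1 (-0.09). Arntl and Dbp define the index, so their adjusted differences must be equal and a turn in either of them was fixed in advance. Without mice 5 and 6 signs turned in Nfil3 (-0.10), Cipc (-0.00), Saa1 (-0.78), Lcn2 (-0.33), Ypel2 (-0.01) and Ubqln1 (-0.01). Csnk1e turned to -0.02 with equal medians and -0.05 with array weights, and Hsd3b5 to -0.07 with the 75th percentile covariate. Leaving out 1 mouse, Csnk1e ran from -0.05 to 0.03, Cipc from -0.00 to 0.08 and Ypel2 from -0.02 to 0.24.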

Other observations

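Small nucleolar RNAs, which guide the chemical modification of ribosomal RNA, had positive differences in 45 of 51 genes with a median of 0.42, and 1 of them, Snord55, was called higher (0.35), against 0.206% of all genes. These families were picked after their values were seen. Relative to lard, the family's level was -0.03, -0.01, 1.19, 0.55, 0.09 and 0.38 in fish oil mice 1 to 6, so mice 3 and 4 were the highest. Mitochondrial ribosomal protein genes had negative differences in 69 of 77 cases (median -0.15, 3 called lower), and complex I subunit genes in 37 of 43 (median -0.16, 1 called lower), against 0.602% of all genes called lower. Relative to lard, fish oil mice 1 and 6 were at 0.03 and 0.01 for the first of these and 0.08 and 0.01 for the second, while mice 2 to 5 lay between -0.33 and -0.14 and between -0.36 and -0.16. Cytosolic ribosomal protein genes had a median of -0.04 over 67 genes. The medians of the first 3 families kept their sign under equal array medians (0.40, -0.17 and -0.18) and a second quantile normalization (0.41, -0.11 and -0.10); the cytosolic family was not run under them.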
